A study of Mus musculus with 2 samples.

Results

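The integrated stress response was followed here through 10 genes: the 4 kinases that phosphorylate the alpha subunit of translation initiation factor eIF2 (Eif2ak1, Eif2ak2, Eif2ak3 and Eif2ak4), that subunit itself (Eif2s1), the transcription factor genes Atf4 and Ddit3, the feedback gene Trib3, and the phosphatase subunit genes Ppp1r15a and Ppp1r15b. They were chosen by name, by matching Ensembl identifiers without their version to GENCODE M21 symbols, and 10 of the 43346 Ensembl gene rows were theirs. M21 gives 11 identifiers for the 10 symbols, since Ddit3 has a further one without a row. The libraries held total RNA, less its ribosomal RNA, of mouse CFU-E cells, committed red cell progenitors named for the small erythroid colonies they form in culture. The cells were primary cells of adult male C57BL/6J mice aged 5 to 6 weeks, with no treatment or engineered allele named in the labels. There was 1 group of 2 biological replicates, each prepared with ScriptSeq from an input of 100 ng. The labels give both replicates 1 donor identifier and different biosamples, so their spread may be partly technical. With 1 group no test between conditions could be made, and values are given as levels in each library.

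When eIF2-alpha is phosphorylated, it traps its exchange factor eIF2B, most translation slows, and a few messages with upstream open reading frames, Atf4 among them, are translated more. The kinase encoded by Eif2ak1, also named HRI, is held inactive by heme and is known in red cell precursors for matching globin synthesis to the heme supply. ATF4 protein raises genes of amino acid supply and stress adaptation, while the products of Ppp1r15a and Ppp1r15b lead protein phosphatase 1 to eIF2-alpha and so restore translation. RNA levels record none of these phosphorylation or translation steps.

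The site on which all 4 kinases act is shown because every gene described here feeds into it or out of it. It lies in Eif2s1 on the forward strand, at chr12:78866665-78866697 on mm10, in exon 2 of 8, within the coding sequence of GENCODE M21 transcript Eif2s1-201. Capitals mark the codon of serine 51, which is codon 52 when the initiator methionine is counted.
Eif2s1 serine codon: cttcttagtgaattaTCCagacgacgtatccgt

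Promoter windows of 3 genes are shown next, namely the most abundant kinase gene, a kinase gene far below it, and the most abundant gene of the set. Each runs 250 bases up to the RefSeq start on GRCm38.p6, printed 5′ to 3′ on the gene's strand. The windows are Eif2ak1 at chr5:143817542-143817791 (forward), Eif2ak3 at chr6:70844265-70844514 (forward) and Ppp1r15a at chr7:45526269-45526518 (reverse). Capitals mark matches on either strand to any of the motifs named after the sequences, and matches that touch run together.
Eif2ak1: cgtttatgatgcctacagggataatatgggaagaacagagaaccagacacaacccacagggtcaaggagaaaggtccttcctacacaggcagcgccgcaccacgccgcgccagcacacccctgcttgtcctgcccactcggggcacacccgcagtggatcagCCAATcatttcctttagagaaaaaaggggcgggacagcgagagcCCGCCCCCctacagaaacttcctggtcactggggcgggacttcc
Eif2ak3: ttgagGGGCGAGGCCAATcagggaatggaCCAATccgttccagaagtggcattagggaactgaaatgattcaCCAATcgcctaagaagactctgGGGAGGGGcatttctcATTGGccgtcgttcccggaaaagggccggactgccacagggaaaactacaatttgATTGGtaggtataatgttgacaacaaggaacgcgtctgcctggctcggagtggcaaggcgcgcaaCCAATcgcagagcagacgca
Ppp1r15a: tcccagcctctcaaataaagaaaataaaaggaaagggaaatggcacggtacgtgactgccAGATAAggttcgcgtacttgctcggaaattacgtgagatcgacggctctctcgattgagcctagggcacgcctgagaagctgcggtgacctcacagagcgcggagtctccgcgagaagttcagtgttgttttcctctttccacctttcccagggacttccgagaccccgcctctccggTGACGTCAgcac
The motifs, chosen after expression values were known, were the ATF4 and C/EBP composite element TGATGNAA, the cAMP response element TGACGTCA, the GATA motif (GATAA or GATAG after an A or a T), the KLF motif CCNCNCCC and the CCAAT box. No motif of these contains another. Of 32851 RefSeq windows of the same length, 3.45% held the composite element, 1.55% the cAMP response element, 26.5% the GATA motif, 45.9% the KLF motif and 33.8% a CCAAT box. RefSeq gave 10 windows for 9 of the 10 genes, with 2 for Eif2ak4 and none for Ppp1r15b. The Eif2ak1 window held 1 KLF match, beginning 44 bases before the start, and 1 CCAAT box, beginning 88 bases before it. The Eif2ak3 window held 6 CCAAT boxes, between 237 and 20 bases before the start, and 2 KLF matches. Ppp1r15a had the cAMP response element 12 bases before its start, and a GATA match 190 bases before it. Atf4 was the other gene with a GATA match, 39 bases before its start, and it had 2 CCAAT boxes. The composite element was in 0 of the 10 windows. These are matches of letters, and binding at them was not measured.

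Replicate 1 held 62576357 expected counts and replicate 2 held 36889542, and the 10 genes together took 0.153% and 0.140% of them. Levels are in TPM, the share of a gene among all transcripts of a library on a fixed sum, which corrects for length and lets genes be compared within a library. Nuclear protein-coding genes held 12.4% of TPM in replicate 1 and 7.49% in replicate 2, and TPM values of such genes were shifted between the libraries. Among the 3384 of them averaging 1000 counts or more, the median log2 TPM ratio of replicate 1 over replicate 2 was 0.64. After TPM was rescaled so that nuclear protein-coding genes had the same sum in each library, that median was -0.09, and levels on that scale are called rescaled. The erythroid lineage was checked with 10 markers, and 10 of 10 exceeded 10 TPM in both libraries, while Kit, a receptor of erythroid progenitors, stood at only 0.42 and 0.51 TPM. These markers do not establish the CFU-E stage, which rests on the label and was not tested. Granulocyte markers were also detected, with 8 of 8 reaching 1 TPM in each library and a summed level of 1197 and 604 TPM, against 26883 and 12368 for the erythroid markers. Of the erythroid sum, the globin gene Hba-a2 alone gave 16412 and 7588. Median levels were 64.3 and 33.4 TPM for granulocyte markers and 488 and 318 for erythroid markers. Single genes overlapped: S100a8, at 557 and 253, stood above Alas2, at 258 and 172, while Prtn3, at 6.99 and 4.30, stood below every erythroid marker. Of the monocyte and macrophage markers 6 of 7 reached 1 TPM in both (summed 133 and 83.6), of the B cell markers 4 of 5 (37.4 and 19.3). Both the T and NK cell markers (summed 4.45 and 2.44) and the megakaryocyte markers (10.9 and 3.46) had 2 of 5 at that level, and the megakaryocyte marker Gp1bb had 0 counts in both. The part of other cells in the levels below was not tested, and in bulk RNA fewer cells of a type and less RNA per cell cannot be told apart.

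Most of the pathway was present, with its phosphatase subunit, its main transcription factor and the heme-regulated kinase highest. Of the 10 genes, 7 reached 1 TPM in both libraries, a level reached by 23.9% of the 21461 nuclear protein-coding genes. At 10 TPM or more in both there were 4, Ppp1r15a, Atf4, Eif2ak1 and Ppp1r15b, against 4.79% of nuclear protein-coding genes. The median of the 10 mean levels was 11.5 TPM, and that of all nuclear protein-coding genes was 0.055. On the rescaled values 9 of 10 reached 1 and 7 of 10 reached 10, where 42.2% and 24.9% of nuclear protein-coding genes did. By deposited TPM, Eif2ak3, Eif2ak4 and Trib3 were below 1 in at least 1 library, and after rescaling Trib3 was.

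**Figure D1:**
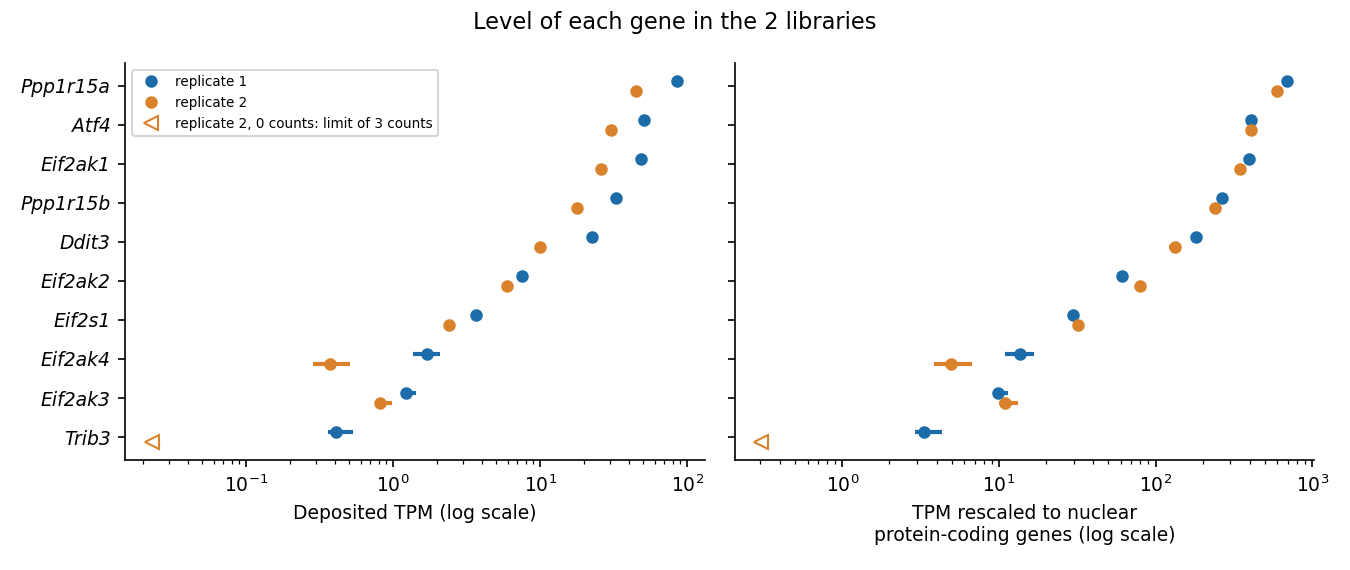
Level of each of the 10 genes in replicate 1 (blue) and replicate 2 (orange), as deposited TPM (left) and as TPM rescaled to nuclear protein-coding genes (right), both on log axes; horizontal lines are the credibility intervals and the open triangle is the limit of 3 counts for Trib3 in replicate 2. All 10 genes were higher in replicate 1 on the left, from 85.6 against 44.6 TPM for Ppp1r15a to 0.41 against 0 for Trib3, and most pairs drew together on the right.

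Eif2ak1 was by far the most abundant of the 4 kinase genes. It lies on chr5:143817788-143904251, forward strand, and had 48.9 TPM in replicate 1 (25158 counts, credibility interval 47.7 to 49.3) and 25.8 TPM in replicate 2 (13044 counts, 25.0 to 26.1). Replicate 1 was higher and the intervals did not overlap, but on the rescaled values the gap shrank to 393 against 344. The mean was 37.3 ± 16.3 TPM (SD, n = 2), or 369 ± 34.6 rescaled. Within the nuclear protein-coding genes it stood above 98.6% in replicate 1 and 98.2% in replicate 2.

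Eif2ak2 encodes PKR, the kinase that senses double-stranded RNA, and came next. It had 7.58 TPM in replicate 1 (3339 counts) and 5.96 in replicate 2 (2451 counts), on chr17:78852564-78882573, reverse strand, with a mean of 6.77 ± 1.15 (SD, n = 2). The libraries swapped order after rescaling, at 61.0 and 79.6. Eif2ak3 encodes PERK, which senses misfolded protein in the endoplasmic reticulum. It lies on chr6:70844515-70905245, forward strand, and had 1.23 TPM (797 counts) and 0.82 TPM (479 counts), with a mean of 1.025 ± 0.290 (SD, n = 2). Rescaled, the PERK gene had 9.90 in replicate 1 and 10.95 in replicate 2, close to each other. Eif2ak4 encodes GCN2, which senses uncharged transfer RNA during amino acid shortage. It lies on chr2:118388618-118475234, forward strand, and had 1.70 TPM (228 counts, 1.36 to 2.08) in replicate 1 and 0.37 TPM (164 counts, 0.286 to 0.508) in replicate 2. Its mean, 1.035 ± 0.940 (SD, n = 2), was therefore hardly larger than its spread.

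Eif2ak1 made up 82.3% of the summed TPM of the 4 kinase genes in replicate 1 and 78.3% in replicate 2, a mean of 80.3% ± 2.83 (SD, n = 2). Eif2ak2 followed with 12.8% and 18.1%, Eif2ak3 with 2.07% and 2.49%, and Eif2ak4 with 2.86% and 1.12%. Eif2ak1 was 6.45-fold above Eif2ak2 in replicate 1 and 4.33-fold above it in replicate 2, a mean log2 ratio of 2.40 ± 0.41 (SD, n = 2). Against Eif2ak3 the folds were 39.7 and 31.5 (mean log2 ratio 5.14 ± 0.24). Against Eif2ak4 they were 28.7 and 69.7 (5.48 ± 0.90), the least steady of these ratios, and by counts they were 110.3 and 79.5. Each mean ratio exceeded its spread between the libraries. By expected counts, without length correction, Eif2ak1 held 85.2% and 80.8% of the kinase total. Over protein-coding transcripts alone, an alternative added after the values were seen, it held 84.5% and 80.0%.

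**Figure D2:**
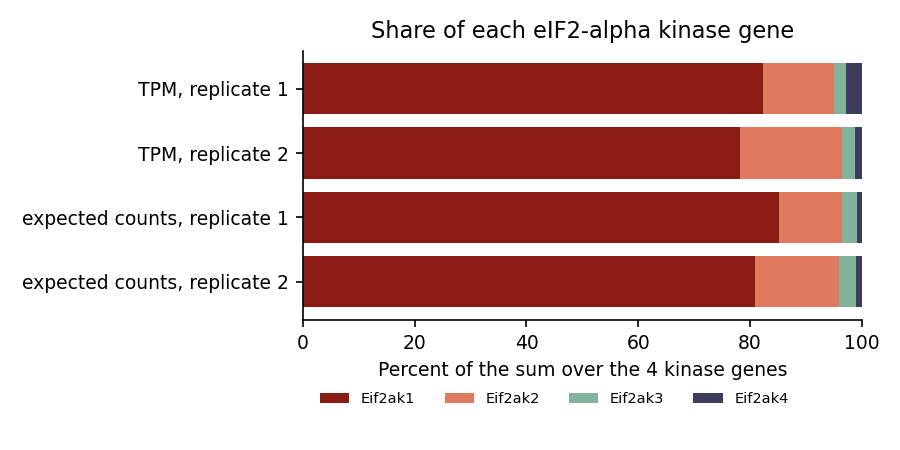
Share of each of the 4 eIF2-alpha kinase genes in their sum, in percent, for each library, by TPM (upper bars) and by expected counts (lower bars). Eif2ak1 took between 78.3% and 85.2% in all 4 bars, and Eif2ak2 took most of the rest.

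The nuclear protein-coding genes whose pair of levels lay closest to that of Eif2ak1, by Euclidean distance of log2 TPM over the 2 libraries, were Rpl29, Gnai2, Cdr2, Mbnl1 and Nfe2. Rpl29, a ribosomal protein gene whose reads can be shared with near-identical copies, had 47.9 and 26.0 TPM at a distance of 0.031. Gnai2, Cdr2 and Mbnl1 had 47.7, 47.1 and 50.6 TPM in replicate 1 and 26.2, 25.5 and 25.1 TPM in replicate 2. Nfe2, an erythroid and megakaryocytic transcription factor gene, had 49.3 and 27.7 TPM at a distance of 0.10. With 2 libraries, and 3383 candidate genes averaging 1000 counts or more, this says only that their levels were alike.

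The gene of the kinase substrate was modestly expressed beside Eif2ak1, the most abundant of the kinase genes by RNA. Eif2s1, on chr12:78861819-78887010, forward strand, had 3.67 TPM (1908 counts) in replicate 1 and 2.39 TPM (1163 counts) in replicate 2, a mean of 3.03 ± 0.905 (SD, n = 2). On the rescaled values it was nearly level, at 29.5 and 31.9. Eif2ak1 RNA was 13.3-fold and 10.8-fold above Eif2s1 RNA (mean log2 ratio 3.58 ± 0.21, n = 2). Over protein-coding transcripts alone the folds were 8.87 and 7.78 (3.05 ± 0.13). Eif2s2, which encodes the beta subunit of the same complex, had 14.4 and 9.47 TPM, and Eif2s1 stood below it by a log2 ratio of -1.98 ± 0.01 (SD, n = 2). By counts, without length correction, that ratio was -1.61, so the measure moved it more than the libraries did. Among the 12 genes of the eIF2 and eIF2B complexes and eIF2 partners, Eif2s1 included, 10 reached 1 TPM in both libraries and 1 reached 10, with a median of 3.05 TPM. Highest were Eif5, the GTPase activator of eIF2, at 20.3 ± 9.97 TPM, Eif2s2 at 11.9 ± 3.46, and the gamma subunit genes Eif2s3y at 11.4 ± 4.69 and Eif2s3x at 5.48 ± 1.03 (SD, n = 2).

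Atf4, the transcription factor gene at the centre of the response, was the second most abundant of the 10. It lies on chr15:80255184-80257541, forward strand, and had 50.8 TPM (12459 counts) and 30.3 TPM (7050 counts), a mean of 40.5 ± 14.5 (SD, n = 2). After rescaling the libraries were almost equal, at 409 and 405 (407 ± 2.93). Ddit3 encodes CHOP, a transcription factor induced downstream of ATF4 and tied to cell death under lasting stress. It lies on chr10:127290774-127296288, forward strand, and had 22.6 TPM (1843 counts) in replicate 1 and 9.96 TPM (886 counts) in replicate 2, a mean of 16.3 ± 8.92 (SD, n = 2). Replicate 1 stayed higher after rescaling, at 182 against 133. Atf4 was 2.25-fold and 3.04-fold above Ddit3 by TPM (mean log2 ratio 1.39 ± 0.31, n = 2). By counts, without length correction, the folds were 6.76 and 7.96 (2.87 ± 0.17), and over protein-coding transcripts alone 2.49 and 4.27 (1.71 ± 0.55). Atf5, a related factor with translation controlled in the same way, stood far lower at 0.37 and 0.16 TPM, and Atf4 was 137-fold and 189-fold above it.

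Trib3, a pseudokinase gene known as a target of ATF4 and CHOP that restrains them, was low in 1 library and at the limit of detection in the other. It lies on chr2:152337422-152344032, reverse strand, and had 121 counts (0.41 TPM) in replicate 1 and 0 counts in replicate 2. The 121 counts have an exact 95% Poisson interval of 100.4 to 144.6, and 3 counts, taken as the limit of a count of 0, would be 0.0227 TPM in replicate 2. Both limits reflect counting error alone, because PCR copies of a molecule are counted as separate reads. The limit in TPM also depends on the effective length of Trib3, which was 874 bases in replicate 2 and 1803 in replicate 1. A longer length would lower it. The deposited credibility interval of Trib3 in replicate 2 was wider, from 0.00225 to 0.0878 TPM. On library-scaled counts, and for counting error alone, Trib3 was at least 20.6-fold higher in replicate 1, taking the lower Poisson limit there and 3 counts in replicate 2. The deposited TPM intervals lay closer, with a lower bound of 0.361 in replicate 1 against an upper bound of 0.0878 in replicate 2. Ddit3 exceeded it 55.1-fold by TPM in replicate 1, or 15.2-fold by counts. In replicate 2 the lower bound of the Ddit3 interval was 104-fold above the upper bound of the Trib3 interval. RNA of Trib3 was therefore detected in 1 of 2 libraries.

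The 34 genes listed as targets of ATF4 or CHOP were uneven. Ddit3 and Trib3, also described above as downstream of ATF4, were counted in the main set and not in this list. Of them 11 reached 1 TPM in both libraries, 2 reached 10, and the median was 0.89 TPM. Highest were the subunits of a large neutral amino acid transporter, Slc7a5 at 18.5 ± 5.13 TPM and Slc3a2 at 17.2 ± 5.57, then Pck2, a mitochondrial phosphoenolpyruvate carboxykinase gene, at 7.41 ± 3.17 and Cebpg, a partner of ATF4, at 5.72 ± 1.46 (SD, n = 2). The transporter gene Slc7a3, the folate enzyme gene Aldh1l2, Cth of cysteine synthesis, and the secreted factor genes Stc2, Fgf21 and Gdf15 had 0 counts in both libraries. Others, picked after their values were seen, lay between. Asns, asparagine synthetase, had 5.05 and 2.84 TPM. Chac1, a glutathione-degrading enzyme gene and CHOP target, had 0 and 3 counts, and Ddit4 had 0 and 36. Low targets also ran the other way between the libraries, with Nupr1 at 120 and 9 counts and Atf3 at 106 and 24. On the rescaled values 21 of 34 reached 1 in both. The 12 aminoacyl-tRNA synthetase genes linked to ATF4 were more even, with 12 of 12 reaching 1 TPM in each library and a median of 4.67 TPM. Cars stood at 19.3 ± 2.80 TPM, Sars at 17.8 ± 14.5, Aars at 12.4 ± 3.91 and Nars at 10.3 ± 3.99 (SD, n = 2). Sars was the one whose libraries lay furthest apart by TPM, at 28.0 and 7.59. Its counts were 4489 and 1921, and its effective length, by which TPM divides counts, was 980 bases in replicate 1 and 1677 in replicate 2. Of nuclear protein-coding genes, 23.9% reached 1 TPM in both libraries, and 42.2% reached 1 on the rescaled values. The 2 of 34 targets at 10 TPM were 5.88%, close to the 4.79% of nuclear protein-coding genes at that level. No test set the lists against these shares.

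**Figure D3:**
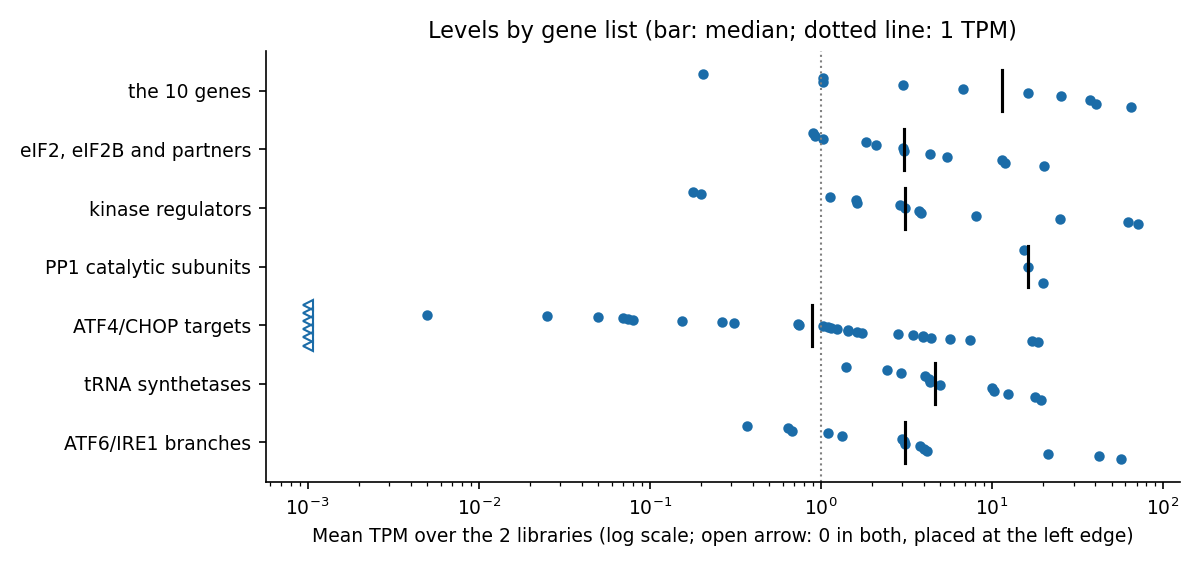
Mean TPM over the 2 libraries (log axis) of each gene in the 10-gene set and in 6 further lists of the pathway; each dot is a gene, the black bar is the list's median, the dotted line is 1 TPM, and open triangles at the left edge are genes at 0 in both libraries. The 10 genes had a median of 11.5 TPM, while the listed ATF4 and CHOP targets had a median of 0.89 and 6 genes at 0. These medians depend on how the lists were drawn. Ddit3 and Trib3 were placed among the 10 genes, and the synthetase genes linked to ATF4 form their own list.

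The phosphatase side was high. Ppp1r15a encodes GADD34, the stress-inducible subunit, and was the most abundant of the 10 genes. It lies on chr7:45522916-45526268, reverse strand, and had 85.6 TPM (27587 counts) in replicate 1 and 44.6 TPM (14701 counts) in replicate 2, a mean of 65.1 ± 28.9 (SD, n = 2), or 643 ± 65.4 rescaled. It stood above 99.3% and 99.1% of nuclear protein-coding genes. Ppp1r15b encodes CReP, the constitutive subunit, and was the next below Eif2ak1. It lies on chr1:133131143-133139783, forward strand, and had 32.8 TPM (22585 counts) and 17.9 TPM (11581 counts), a mean of 25.3 ± 10.5 (SD, n = 2). Ppp1r15a was 2.61-fold above Ppp1r15b in replicate 1 and 2.50-fold in replicate 2, a mean log2 ratio of 1.35 ± 0.05 (n = 2). By counts, without length correction, that ratio was only 0.32, and over protein-coding transcripts alone it was 2.58 ± 0.02. The inducible subunit was the higher on each of these measures, but by how much depended on the measure. Of the catalytic subunit genes of protein phosphatase 1 that these subunits bind, 3 of 3 exceeded 10 TPM in both libraries, with Ppp1cb at 19.9 ± 5.96, Ppp1cc at 16.4 ± 5.53 and Ppp1ca at 15.4 ± 4.64 TPM (SD, n = 2).

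Regulators and partners of the kinases were mostly detected, with 11 of 13 reaching 1 TPM in each library, 3 reaching 10, and a median of 3.12 TPM. The chaperone genes Hspa8 at 71.4 ± 25.9 TPM, Hsp90aa1 at 62.6 ± 26.3 and Hsp90ab1 at 25.0 ± 9.33, whose products bind the heme-regulated kinase, were highest, followed by Adar, an RNA editing enzyme that limits PKR activation, at 8.09 ± 4.50 (SD, n = 2). Other regulators were named for their role after values were seen. Dele1, which carries mitochondrial stress to the heme-regulated kinase, had 4.44 and 1.38 TPM, and Oma1, the protease that cleaves its product, had 1.27 and 1.00. Impact, an inhibitor of GCN2, had 0.16 and 0.24 TPM, and Prkra, an activator of PKR, had 0.23 and 0.13.

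Arranged by mean TPM, the order was Ppp1r15a, Atf4, Eif2ak1, Ppp1r15b, Ddit3, Eif2ak2, Eif2s1, Eif2ak4, Eif2ak3 and Trib3. Atf4 and Eif2ak1 were close, with within-library log2 ratios of 0.06 and 0.23 (0.14 ± 0.13, n = 2), barely past their spread. Eif2ak4 and Eif2ak3 could not be ordered by gene TPM, since Eif2ak4 was higher in replicate 1 by 0.47 and lower in replicate 2, at -1.15 on the log2 scale. By counts Eif2ak3 was the higher in both, at 797 and 479 against 228 and 164. Its coding transcripts were also higher, at 1.01 and 0.62 TPM against 0.19 and 0.34. Every other neighbouring pair with counts in both libraries kept its order by TPM in each, with a mean log2 ratio larger than its SD.

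The deposited TPM interval of replicate 1 lay above that of replicate 2 for 10 of the 10 genes. The same was true of 67.7% of the 10403 genes averaging 50 counts or more, and the reverse of 9.46%. On counts scaled by TMM, which balances the libraries on most genes, 9 of 10 genes differed by less than 0.5 on the log2 scale. Their ratios of replicate 1 over replicate 2 ran from -0.25 for Eif2ak2 and -0.22 for Eif2ak4 to 0.26 for Ppp1r15b and 0.36 for Ddit3, with Eif2ak1 at 0.25, Ppp1r15a at 0.21, Atf4 at 0.12, Eif2ak3 at 0.04 and Eif2s1 at 0.02. Trib3 alone was at least 2-fold higher in replicate 1, 1 of 10, where 10.8% of the 10403 genes were, and 0 of 10 were 2-fold higher in replicate 2, where 10.3% were. The median absolute log2 ratio was 0.24 for the 10 genes, 0.41 for those 10403 genes, and 0.20 for nuclear protein-coding genes averaging 1000 counts or more. The signs for Eif2ak2 and Eif2ak4 turned on deposited TPM, to 0.35 and 2.20.

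**Figure D4:**
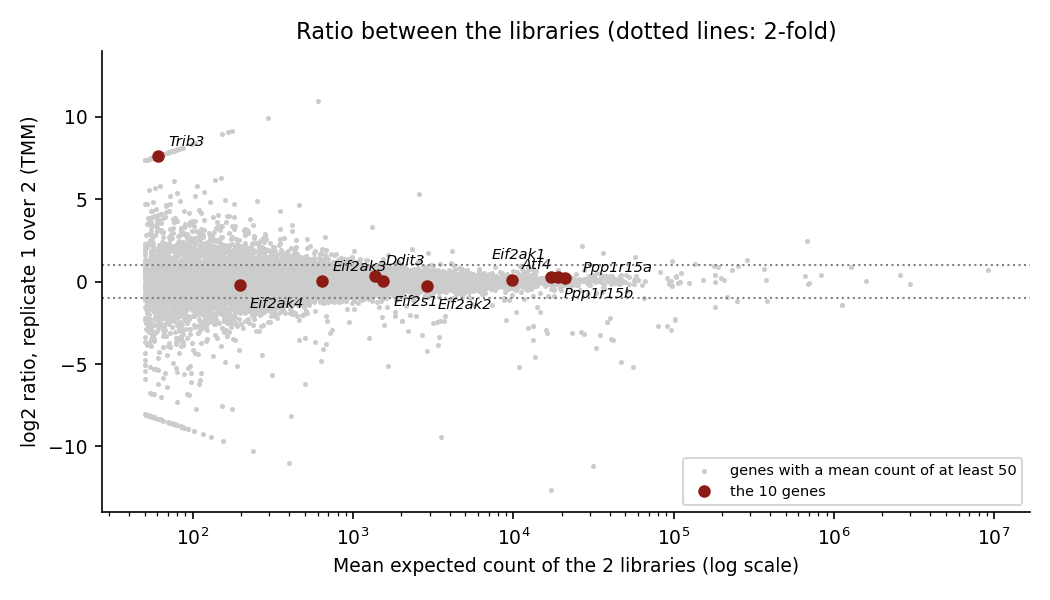
Log2 ratio of replicate 1 over replicate 2 on TMM-scaled counts against the mean expected count (log axis) for genes averaging 50 counts or more (grey) and the 10 genes (red); dotted lines mark 2-fold. The position of Trib3 depends on the prior count, since replicate 2 had 0 counts, while the other 9 genes lie within 0.5 of 0.

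Transcript tables showed where gene levels rested on short or non-coding models. Atf4 and Eif2s1 have 1 transcript each, which is protein coding. For Eif2ak1, the protein-coding Eif2ak1-201 held 66.6% of the gene's TPM in replicate 1 and 72.1% in replicate 2, and 86.9% and 89.3% of its counts. The retained-intron model Eif2ak1-202 held 26.4% and 22.4% of TPM. Coding transcripts thus gave 32.6 and 18.6 TPM for Eif2ak1, still above the coding 4.75 and 3.70 TPM of Eif2ak2. Eif2ak2-201, also coding, held 62.6% and 62.1% of its gene's TPM. Eif2ak2-203, a processed transcript of 574 bases, held 36.5% and 19.3%, and the retained-intron Eif2ak2-202 held 0.922% and 18.6%. For Eif2ak3, the coding Eif2ak3-201 held 82.1% and 75.6% and the retained-intron Eif2ak3-202 17.9% and 24.4%.

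Eif2ak4 differed most between the libraries. Its processed transcript Eif2ak4-208, of 517 bases, took 88.8% of the gene's TPM in replicate 1 (1.51 TPM from 72.5 counts) and 5.56% in replicate 2 (0.02 TPM from 1.23 counts). In replicate 2 the coding Eif2ak4-207 and Eif2ak4-205 held 52.8% and 41.7%, against 0% and 1.18% in replicate 1. This split is uncertain, since by posterior mean TPM the shares in replicate 2 were 44.7% and 15.8%. The 0.15 TPM of Eif2ak4-205 there also lay above the upper bound of its own credibility interval, 0.127. The coding transcripts of Eif2ak4 together gave 0.19 and 0.34 TPM, so the higher gene-level TPM of replicate 1 was not seen in them. Coding counts were 156 and 163 before scaling, in libraries of 61216283 and 37709101 effective counts.

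For Ddit3, the coding Ddit3-203 and Ddit3-201 held 60.6% and 29.7% of TPM in replicate 1, and 48.8% and 22.4% in replicate 2. The retained-intron Ddit3-202 held 9.74% in replicate 1 and 28.8% in replicate 2, and had 268 and 340 counts, although replicate 2 was the shallower library. Ppp1r15a-201, coding, held 83.4% and 93.4% of its gene. Ppp1r15b-202, a processed transcript of 3688 bases, held 60.5% and 58.6%, and the coding Ppp1r15b-201 held 39.5% and 41.4%, or 12.95 and 7.39 TPM. Trib3-201, coding, held 100% in replicate 1. Several genes overlap others on the opposite strand, and no source used here gives the strand setting of the counting, so reads of the overlaps cannot be told apart. Eif2ak1 shares 6945 bases with Ankrd61 (39 and 43 counts) and 1548 with Aimp2 (711 and 155 counts), and Ddit3 shares 68 bases with Mars (2822 and 1337 counts). Ppp1r15a shares 717 bases with Tulp2, which had 0 counts in both, and Ppp1r15b shares 640 with Gm26616 (76 and 69 counts).

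**Figure D5:**
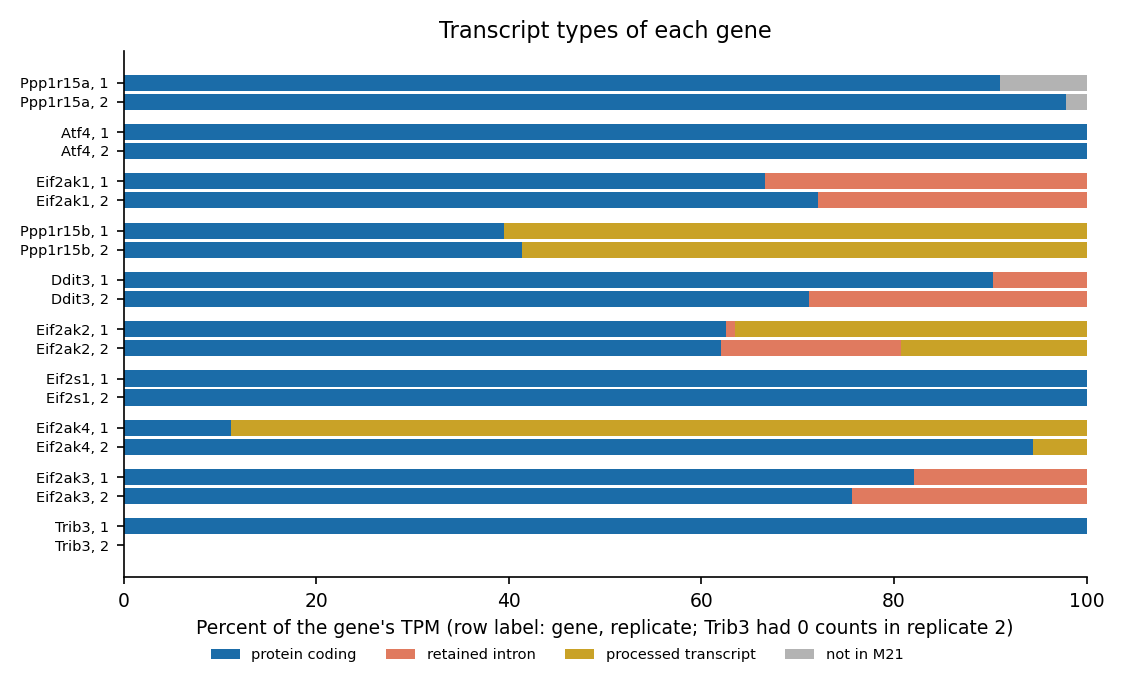
Percent of each gene's TPM in transcripts of each GENCODE M21 type, by library (gene name, then replicate number); grey marks transcripts without an M21 entry, and Trib3 has no bar in replicate 2. Coding transcripts made up 11.2% of Eif2ak4 in replicate 1 and 94.4% in replicate 2, while Ppp1r15b was close between the libraries at 39.5% and 41.4%.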

How the data were processed

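Gene and transcript tables of 2 libraries of 1 group were used. Per the file headers, the authors deposited expected counts, which are estimates that share reads matching several features, and TPM, together with posterior mean TPM. The bounds of a credibility interval for TPM are a further deposited signal column, and effective lengths in bases stand beside them. Per the notes deposited with the tables, the assembly was mm10 and the annotation GENCODE M4; aligner and quantifier: not given in the sources used here. Names, types and coordinates are those of the later GENCODE M21 on that assembly, and 42462 of 43346 Ensembl rows matched. Rows without an Ensembl identifier, 26345 in each library with 0 and 25 counts, were left out. Of the 20 counts of the 10 genes, 19 were whole within 0.005.

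Rounded expected counts went into edgeR 4.0.16, whose TMM scaling (effective sizes 61216283 and 37709101) and prior count of 0.5 gave the ratios between libraries, and into DESeq2 1.42.0 for alternative size factors. R 4.3.3, Python 3.11.15, pandas 2.3.3, numpy 2.4.6, scipy 1.17.1 and matplotlib 3.10.9 were used. The ratio and dispersion steps were tested on simulated data with a smaller dispersion than these libraries had. Their estimates ran from 0.0480 to 0.922 by count filter, so the simulation checks the calculation and not its precision here. Means and SDs are over n = 2, and no p-value was computed.

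The 10 genes and all lists were chosen with earlier results of these data known. Named genes were the 10, both genes of 9 pairs, the 4 highest of each of the 6 pathway lists and every gene of them at 0 counts in both libraries, the 5 genes nearest to Eif2ak1, and transcripts with at least 10% of a gene; others are named as exceptions. The cell marker lists, which the rule also covered, are given as counts, sums and some medians, with a few of their genes named. Alternatives were rescaled TPM, posterior means, count ratios, a pseudocount of 0.1 TPM, levels of 0.5 and 5 TPM, a prior count of 5, count filters, leaving out each library and, added after values were seen, protein-coding transcripts alone.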

Additional observations from a re-analysis of the deposited data

How the results depend on the processing

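Over 69 results, 288 values were recomputed under other settings. Of these 221 stayed within an allowance, 65 moved further and 2 changed sign. The allowance was the SD between the libraries, or 1.5 times for counts, percentages of all genes and the biological coefficient of variation. For the log2 ratios of replicate 1 over replicate 2 it was that coefficient, 0.419, which is neither their spread nor in log2 units. With n = 2, a value from 1 library always lies within the SD of the mean. Leaving out a library therefore could not move a level, ratio or share that had an SD. Levels of the 10 genes moved on rescaling because its unit differs. The share of Trib3-201 without replicate 2 was tallied as moved at an unchanged 100%, for want of an SD. The tallies do not measure how robust the results are. With deposited TPM in place of TMM-scaled counts, the log2 ratio of replicate 1 over replicate 2 turned from -0.25 to 0.35 for Eif2ak2 and from -0.22 to 2.20 for Eif2ak4. On that scale 3 of the 10 genes (Trib3, Ddit3 and Eif2ak4) were at least 2-fold higher in replicate 1, as were 31.8% of all genes, and 5.85% were higher in replicate 2. The TPM scale itself was shifted by a median log2 ratio of 0.64. Without a filter beyond 1 count, 27.8% of genes were 2-fold higher in replicate 2 and 14.8% in replicate 1. The biological coefficient of variation was 0.419 where each library had 10 counts or more, 0.960 without that filter and 0.219 with at least 1000 counts. Rescaled TPM put 7 of the 10 genes at 10 or more, in place of 4. The share of Eif2ak1 among the kinase genes was 78.3% to 82.3% when 1 library was left out. Over coding transcripts alone the mean log2 ratio of Eif2ak1 to Eif2ak4 was 6.60, in place of 5.48. For genes at 0 counts in both libraries, depth allows no more than a limit of 3 counts a library. No paired analysis was possible because there is 1 group.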

Other observations

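Genes of the other branches of the endoplasmic reticulum stress response, those of ATF6 and IRE1, were measured beside the PERK gene Eif2ak3. Of 14 genes, 9 reached 1 TPM in both libraries and 3 reached 10, with a median of 3.09 TPM. Hspa5, the chaperone BiP of the endoplasmic reticulum, stood at 56.4 ± 23.6 TPM, Hsp90b1 at 42.1 ± 18.9, Manf at 21.3 ± 11.7 and Sel1l, a subunit of the degradation machinery, at 4.15 ± 1.97 (SD, n = 2). The sensor genes were lower. Atf6 had 3.64 and 2.33 TPM and Ern1, which encodes IRE1-alpha, had 0.88 and 0.47, so that Eif2ak3, at 1.23 and 0.82, lay between them in both libraries. Xbp1, the message spliced by IRE1, had 3.63 and 2.53 TPM. Atf6, Ern1 and Xbp1 were named for their roles after their values were seen.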
